A study of Homo sapiens with 6 samples.

Results

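The amino acid transporter genes examined here were the genes of the solute carrier families SLC1A, SLC3A, SLC7A, SLC36A, SLC38A and SLC43A. The rule reads gene symbols alone, although the families were picked with earlier results of these data known, and 33 of the 16250 genes listed for the series matched. RNA was sequenced from HK-2 cells, an immortalized line derived from human proximal tubule epithelium, which in both groups overexpressed the substance P receptor NK-1R from a lentiviral vector and had been selected with puromycin. The SP group received 20 µM substance P (SP), a neuropeptide ligand of NK-1R, and the control group received PBS, each for 48 h and with 3 libraries. The labels do not say whether the libraries came from separate cultures, so p-values measure only the spread between these libraries, which may be technical. Levels are given as FPKM, which scales fragments to transcript length and library total, so they can be compared between genes per length. The read depth behind them is unknown.

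Amino acids cross membranes on carriers that differ in substrate and in what drives them. SLC1A carriers move glutamate or small neutral amino acids with sodium, and SLC38A carriers take up glutamine, alanine and related neutral amino acids with sodium. Some SLC36A carriers, SLC36A1 among them, are driven by protons. SLC7A carriers include the cationic amino acid transporters and the light chains, which reach the plasma membrane by binding a glycoprotein heavy chain of the SLC3A family, and SLC43A holds facilitators for large neutral amino acids. In the proximal tubule such carriers reclaim filtered amino acids, and in growing cells the uptake of leucine, glutamine and arginine feeds protein synthesis and mTORC1. The transcription factor ATF4, which is made when amino acids run short, binds the promoters of many of these genes.

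The sequences just upstream of transcription start sites of some members are shown first, because the letters of motifs known for stress- and growth-responsive factors stand in them. All are from the RefSeq promoter table on GRCh38.p14. Where a gene had several starts, the one with the most motif matches in the 140 bases upstream was taken. It need not be the main start. The sequences of SLC38A1, SLC1A3, SLC36A4 and SLC3A2 lie inside the annotated span of their gene. All sequences are written 5′ to 3′ on the strand of the gene and begin 140 bases before the start site. Those of SLC7A5, SLC38A1 and SLC3A2 run to the base before it, and those of SLC1A3 and SLC36A4 end at -65 and -30, where GENCODE 29 annotates a UTR of another transcript. Capitals mark the E-box CACGTG in SLC7A5, the AP-1 motif TGANTCA in SLC38A1, SLC1A3 and SLC36A4, and the AP-1 motif with the overlapping antioxidant response element (ARE) TGACNNNGC in SLC3A2.
SLC7A5, chr16:87869508-87869647, minus strand: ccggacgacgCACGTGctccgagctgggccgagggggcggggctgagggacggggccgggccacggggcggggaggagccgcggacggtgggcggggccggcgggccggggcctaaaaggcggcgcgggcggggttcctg
SLC38A1, chr12:46266517-46266656, minus strand: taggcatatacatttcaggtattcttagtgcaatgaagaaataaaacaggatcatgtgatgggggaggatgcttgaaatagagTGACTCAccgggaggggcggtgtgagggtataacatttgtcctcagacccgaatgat
SLC1A3, chr5:36606814-36606889, plus strand: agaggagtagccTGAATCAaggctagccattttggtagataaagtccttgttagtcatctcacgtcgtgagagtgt
SLC36A4, chr11:93197456-93197566, minus strand: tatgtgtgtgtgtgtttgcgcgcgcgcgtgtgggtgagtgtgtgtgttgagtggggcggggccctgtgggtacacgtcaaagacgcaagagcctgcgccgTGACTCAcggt
SLC3A2, chr11:62881559-62881698, plus strand: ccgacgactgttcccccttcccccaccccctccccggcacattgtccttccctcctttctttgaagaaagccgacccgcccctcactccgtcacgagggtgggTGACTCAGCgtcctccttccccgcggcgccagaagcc

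SLC7A5 carries its E-box 130 bases before this start site, as the first capital lies at position -130. The AP-1 motif begins at -57 in SLC38A1, at -128 in SLC1A3, at -40 in SLC36A4 and at -37 in SLC3A2. SLC1A3 held a further AP-1 match at -26, in the stretch not shown. The pattern TGANTCA takes any base at N and so is wider than the AP-1 site, which has C or G there. In SLC1A3 the match at -128 reads TGAATCA and the one at -26 reads TGAGTCA. The matches in SLC7A8 promoters, which count in the AP-1 share below, read TGATTCA. The share over all promoters was counted with the same pattern. Both strands were searched over 250 bases before to 50 bases after each start, for these 3 motifs and for the C/EBP-ATF motif TGATGNAA to which ATF4 binds. The table held 48 promoters for 27 of the 33 members and 35116 promoters in all. The C/EBP-ATF motif was present in 6 (12.5%) of the member promoters and in 3.62% of all promoters. AP-1 was present in 8 (16.7%) against 7.71% of all, the ARE in 7 (14.6%) against 13.3%, and the E-box in 9 (18.75%) against 7.26%. Several promoters belong to the same gene and share sequence, and the matches are a description of letters in these windows.

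In the comparison of SP with control cells, 23 members reached an FPKM of 0.5 in 3 or more libraries and were tested with limma on log2(FPKM + 1), with p-values adjusted over all 12127 genes tested. No member passed this filter through 1 group alone. At an adjusted p under 0.05, 9 members were called, where 20.6% of all genes tested were called in either direction. Of the members, 8 of the 23 (34.8%) were higher with SP, where 8.57% of all genes were higher, and 1 (4.35%) was lower, where 12% of all genes were lower. The higher genes were SLC7A5, SLC1A3, SLC38A1, SLC7A1, SLC38A2, SLC36A4, SLC7A6 and SLC1A5, and the lower gene was SLC38A7. Among them SLC7A5 and SLC1A3 also changed at least 2-fold on the log2(FPKM + 1) scale, a change that 1.29% of all genes showed in the higher direction. The median log2 fold change was 0.29 over the 23 members and -0.05 over all genes, and 17 members had a positive and 6 a negative value. For comparison, 32 (18.1%) of the 177 other SLC genes tested were higher and 14 (7.91%) were lower, with a median of 0.07. The control and SP libraries did not overlap for 11 members, as for 42% of all genes.

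FPKM totals were 672807 to 760889 in control and 681075 to 688406 in SP libraries, and the split over all genes moved with scaling. Of all calls, 41.6% were higher in the values as deposited (1039 higher and 1457 lower), against 58.2% after scaling the libraries to equal FPKM totals (1044 and 751), 58.5% with median-ratio scaling (1283 and 912) and 47.6% with quantile normalization (1181 and 1301). The members called higher numbered 7, 8 and 8 under these scalings and those called lower 0, 0 and 1. The share of members called higher was not tested against that of all genes.

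**Figure D1:**
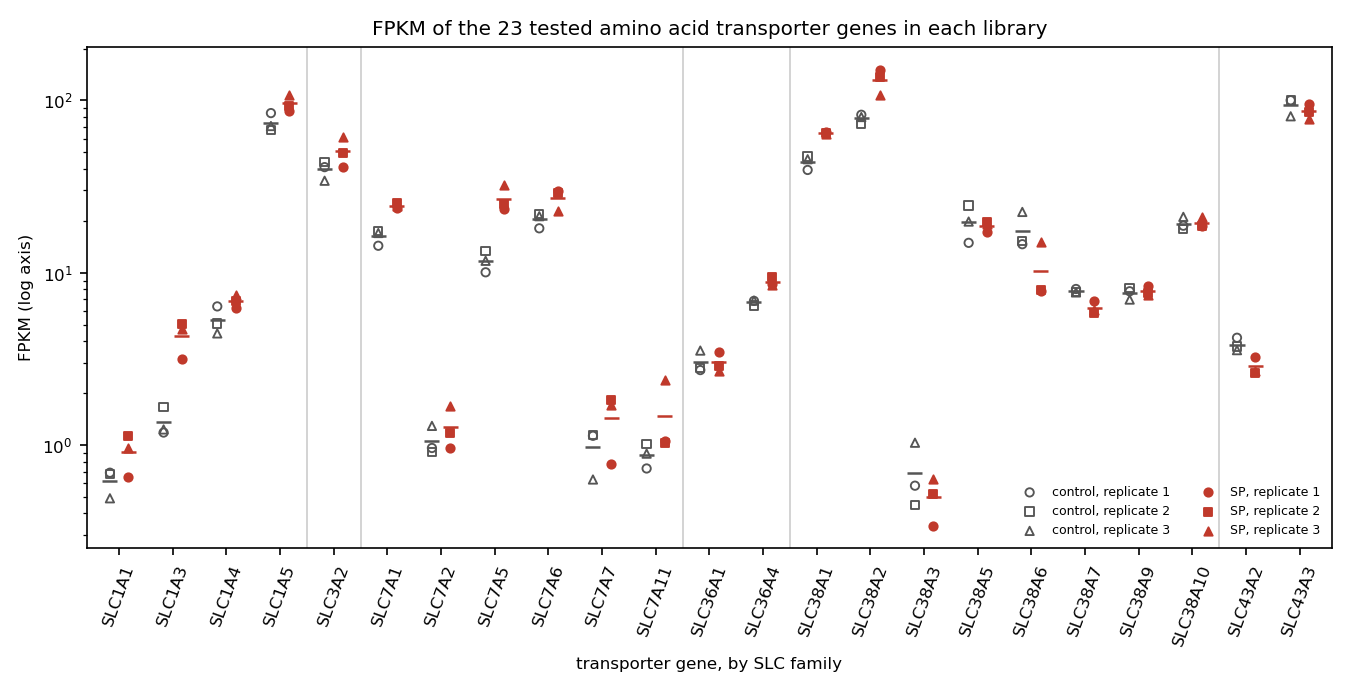
FPKM on a log axis of the 23 tested transporter genes, ordered by SLC family, with control libraries as open grey symbols, SP libraries as filled red symbols, a symbol shape for each replicate number and a short line at each group mean. SLC38A2, SLC1A5, SLC43A3 and SLC38A1 are the most abundant, and the SP libraries of SLC7A5 lie between 23.49 and 32.17 against 10.05 to 13.37 in control.

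The part that receptor level plays in these differences was not tested. TACR1, which encodes NK-1R, averaged 24.8 ± 8.66 FPKM without and 114 ± 32.1 FPKM with SP (SD, n = 3 each, a difference of 2.17 on the log2 scale, adjusted p = 0.0021 with limma), and vector and endogenous transcript are not told apart. Among proximal tubule markers, GGT1 was at 45.37 to 64.55 FPKM in control and 54.0 to 56.66 in SP libraries and PAX8 at 96.05 to 108.99 and 106.73 to 121.78, while HNF4A, CUBN, SLC34A1 and SLC5A2 were at or near 0. Simple epithelial markers summed to 1091 to 1155 and 1125 to 1192, although CDH1 was at or near 0. Within that sum KRT18 was at 292.54 to 317.88 in control and 340.99 to 377.05 in SP libraries (adjusted p = 0.032 with limma) and KRT8 at 617.49 to 644.23 and 581.3 to 600.35 (adjusted p = 0.299), both without overlap, and their part in the results below was not tested. The 5 fibroblast markers, mostly LUM, summed to 23.5 to 29.9 in control and 15.7 to 18.1 in SP-treated cells, and their part in the results below was not tested. Endothelial markers summed to 0.05 to 0.07 in control and 0.33 to 0.67 in SP libraries, there mostly PECAM1. The only distal nephron marker listed, SLC12A3, was at 0.06 or less. Podocyte markers, nearly all PODXL, summed to 1.41 to 1.73 and 3.02 to 4.39. The part of these endothelial and podocyte differences in the results below was not tested. The leukocyte sum (108 to 117) was nearly all CD68, with PTPRC at or near 0. In bulk RNA a change in the number of cells of a kind and a change in RNA per cell cannot be told apart.

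SLC7A5 was the member with the smallest p. It encodes LAT1, the light chain that exchanges leucine and other large neutral amino acids for glutamine, and is found on chromosome 16 (minus strand, bases 87830023 to 87869488, GENCODE 29 on GRCh38), with 10 exons and 1521 coding bases in its principal transcript. Its FPKM was 10.05, 13.37 and 11.72 in the control libraries and 23.49, 25.01 and 32.17 in the SP libraries. Every SP library was above every control library. The means were 11.7 ± 1.66 and 26.9 ± 4.64 (SD, n = 3 each), a log2 fold change of 1.13 (SE 0.13, adjusted p = 0.0016 with limma), and the adjusted p stayed at or below 0.011 in all 14 processing alternatives. An antisense transcript overlaps the gene, and strand use in counting is not stated, so reads of such partners cannot be told apart here or for the genes below.

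SLC3A2 encodes CD98hc, the heavy chain that LAT1 and other SLC7A light chains need to reach the surface, on chromosome 11 from 62856102 to 62888875. Its FPKM was 40.99, 44.01 and 34.17 in control and 40.98, 49.25 and 61.61 in SP libraries, so the groups overlapped. The log2 fold change was 0.33 (95% interval -0.0045 to 0.66, adjusted p = 0.141 with limma), and no alternative called it. The ratio of SLC7A5 to SLC3A2 FPKM was 0.245, 0.304 and 0.343 in control and 0.573, 0.508 and 0.522 in SP libraries, a mean of 0.297 ± 0.0492 against 0.534 ± 0.0344 (SD, n = 3). All SP ratios were above all control ratios, with p = 0.1 in an exact two-sided permutation test, the smallest that 3 against 3 libraries allow. The summed FPKM of the light chains SLC7A5, SLC7A6, SLC7A7, SLC7A8, SLC7A10 and SLC7A11 was 34.0 ± 3.73 in control and 57.1 ± 2.0 in SP libraries (n = 3, exact permutation p = 0.1). Divided by SLC3A2 it was 0.865 ± 0.139 and 1.15 ± 0.194 (n = 3, exact permutation p = 0.2). These 3 quantities and 2 further ratios below were chosen after the values were seen, and with 5 comparisons none can pass an adjusted threshold.

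**Figure D2:**
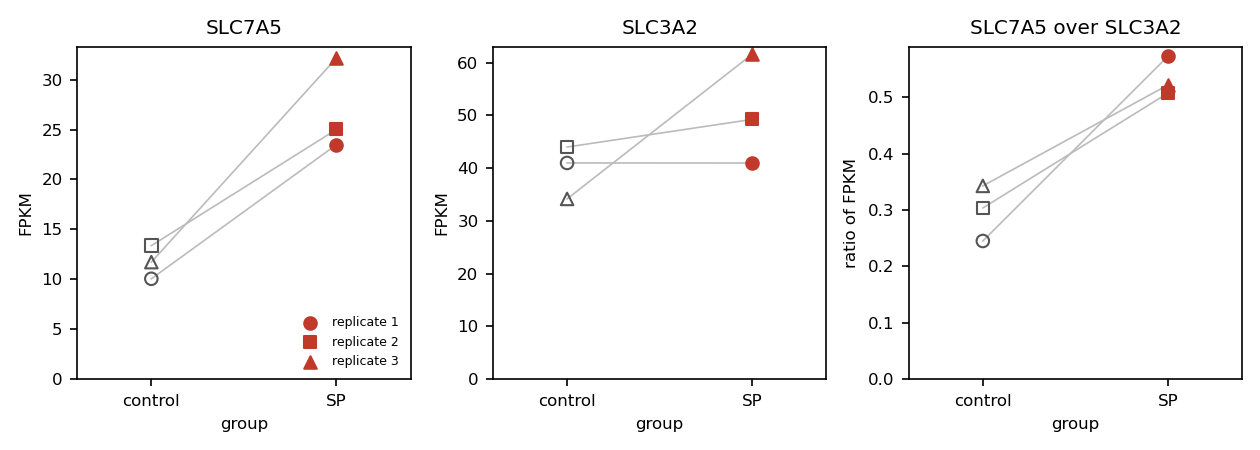
FPKM of SLC7A5 (left) and SLC3A2 (middle) and the ratio of their FPKM (right) in control and SP libraries, with grey lines joining libraries of the same replicate number. The ratio lies between 0.245 and 0.343 in control and between 0.508 and 0.573 in SP libraries, while the SLC3A2 groups overlap.

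SLC7A1, which encodes the cationic amino acid transporter CAT1 for arginine and lysine and needs no heavy chain, was also higher. The gene spans chromosome 13 from 29509410 to 29595688. Its promoter window held an ARE and a C/EBP-ATF match. Its FPKM was 14.33, 17.44 and 16.99 in control and 23.75, 25.39 and 24.38 in SP libraries. The SP values lay close together and above all control values, with a log2 fold change of 0.57 (SE 0.09, adjusted p = 0.0039 with limma), and the gene was called in all 14 alternatives.

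SLC7A6, the y+LAT2 light chain that exports arginine in exchange for glutamine, was nearer to the threshold. It lies on chromosome 16 from 68264516 to 68301823 and overlaps the protein-coding gene SLC7A6OS on the other strand. Its FPKM was 18.09, 21.87 and 21.27 in control and 29.87, 28.89 and 22.92 in SP libraries, with no overlap but with SP replicate 3 only just above control. The log2 fold change was 0.39 (SE 0.11, adjusted p = 0.0421 with limma), and the gene was called in 6 of 14 alternatives. Its adjusted p was 0.096, 0.072 and 0.056 without control replicates 1, 2 and 3, and 0.114 and 0.149 without SP replicates 1 and 2.

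The other SLC7A genes averaged 1.48 FPKM or less in either group and reached at most 2.37 in a single library. SLC7A11, the xCT light chain that imports cystine for glutathione, had 0.73, 1.01 and 0.89 FPKM in control and 1.05, 1.02 and 2.37 in SP libraries. The groups were separated by 0.01 FPKM at their nearest libraries, and the log2 fold change of 0.36 did not pass the test (95% interval -0.07 to 0.80, adjusted p = 0.206 with limma). SLC7A7, the y+LAT1 light chain, differed by 0.29 on the log2 scale (adjusted p = 0.304) and SLC7A2, a further cationic carrier, by 0.14 (adjusted p = 0.487). SLC7A8, SLC7A9, SLC7A10 and SLC7A14 were below the filter, as was SLC3A1, the heavy chain with which SLC7A9 takes up cystine in the proximal tubule, at 0.03 to 0.10 FPKM. The summed FPKM of the 10 SLC7A genes listed was 51.3 ± 5.39 in control and 82.9 ± 2.72 in SP libraries (SD, n = 3), and the median log2 fold change of the 6 tested was 0.38, with 3 higher and none lower.

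Among the SLC38A genes, SLC38A2 and SLC38A1 were higher. Both encode system A carriers of glutamine and alanine (SNAT2 and SNAT1), and SLC38A2 is known to be induced when amino acids run short. They are neighbours on the minus strand of chromosome 12, SLC38A1 from 46183063 to 46270017 and SLC38A2 from 46358189 to 46372867. SLC38A4, the next gene along (46764761 to 46832408), stayed below 0.15 FPKM in every library. SLC38A2 was the most abundant member of its family, with 82.54, 73.01 and 80.07 FPKM in control and 150.57, 137.39 and 107.43 in SP libraries. All SP libraries were above control, with replicate 3 nearest to it, and differed by 0.73 on the log2 scale (SE 0.12, adjusted p = 0.0055 with limma). SLC38A1 had 39.47, 47.23 and 45.56 FPKM in control and 65.38, 64.32 and 63.65 in SP libraries. These SP values differed by under 2 FPKM and lay above all control values, with a log2 fold change of 0.54 (SE 0.08, adjusted p = 0.0032 with limma). Both genes were called in all 14 alternatives. The ratio of SLC38A2 to SLC38A1 FPKM was 1.80 ± 0.275 in control and 2.04 ± 0.318 in SP libraries (SD, n = 3, exact two-sided permutation p = 0.4). The promoter window of SLC38A1 held the AP-1 motif shown above and a C/EBP-ATF match, and that of SLC38A2 held none of the 4 motifs.

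SLC38A7, a glutamine carrier of the lysosomal membrane, was the lower member. It lies on chromosome 16 from 58665109 to 58685104. Its FPKM was 8.04, 7.70 and 7.68 in control and 6.84, 5.80 and 6.09 in SP libraries, without overlap, a log2 fold change of -0.28 (SE 0.08, adjusted p = 0.0435 with limma). The call was lost with equal FPKM totals (0.147), median-ratio scaling (0.076) and no filter (0.069), without control replicates 1, 2 and 3 (0.086, 0.116 and 0.062) and without SP replicates 2 and 3 (0.173 and 0.113).

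SLC38A6 had a larger difference that did not pass the test. Its FPKM was 14.63, 15.28 and 22.52 in control and 7.83, 7.90 and 15.09 in SP libraries, so replicate 3 was the highest of its group in both conditions and the groups overlapped. On the log2 scale the difference was -0.75 (SE 0.24, adjusted p = 0.061 with limma). With the replicate number as a block the adjusted p was 0.0025, and without SP replicate 3 it was 0.012 at a log2 fold change of -1.03. The gene overlaps TRMT5 on the other strand of chromosome 14.

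The remaining SLC38A members tested were SLC38A3, SLC38A5, SLC38A9 and SLC38A10. SLC38A9, a lysosomal arginine sensor for mTORC1, had 7.64 ± 0.601 FPKM in control and 7.81 ± 0.497 in SP libraries (log2 fold change 0.03, 95% interval -0.17 to 0.23, adjusted p = 0.837 with limma). SLC38A10 was at 19.3 ± 1.62 and 19.3 ± 1.37 (log2 fold change 0.01, 95% interval -0.19 to 0.20, adjusted p = 0.967). SLC38A5, a system N carrier of glutamine, was at 19.7 ± 4.81 and 18.7 ± 1.32 (log2 fold change -0.05, adjusted p = 0.832), and SLC38A3, of the same system, was at 0.687 and 0.497 FPKM (log2 fold change -0.16, adjusted p = 0.447). SLC38A11 was below the filter. Summed FPKM of the 10 SLC38A genes was 195 ± 9.05 in control and 259 ± 17.5 in SP libraries (SD, n = 3), of which SLC38A1 and SLC38A2 made up the greater part. The median log2 fold change of the 8 tested was -0.02, with 2 higher, 1 lower and 5 not called, and it was 0.04, 0.03 and -0.01 with equal FPKM totals, median-ratio scaling and quantile normalization.

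SLC1A3 rose by the largest log2 fold change of the 23 members. It encodes the glutamate and aspartate carrier EAAT1 and lies on chromosome 5 from 36606355 to 36688334. Its FPKM was 1.18, 1.66 and 1.23 in control and 3.17, 5.06 and 4.71 in SP libraries. The lowest SP library was well above the highest control library. The log2 fold change was 1.16 (SE 0.15, adjusted p = 0.0024 with limma), which understates a ratio of mean FPKM of 3.18 because of the added 1. All 14 alternatives called it.

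SLC1A5, the glutamine exchanger ASCT2, was the most abundant SLC1A gene and is on chromosome 19 from 46774883 to 46788594. Its FPKM was 84.41, 67.26 and 71.01 in control and 87.13, 92.82 and 108.09 in SP libraries, and the highest control library came close to the lowest SP library. The log2 fold change was 0.37 (SE 0.11, adjusted p = 0.0424 with limma), and 8 of 14 alternatives called it. Its adjusted p was 0.139 and 0.086 without control replicates 2 and 3 and 0.108 and 0.116 without SP replicates 2 and 3. Relative to SLC7A5, which uses the glutamine that ASCT2 brings in, SLC1A5 was at 6.5 ± 1.73 in control and 3.59 ± 0.202 in SP libraries (ratio of FPKM, SD, n = 3, exact two-sided permutation p = 0.1).

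SLC1A4, the alanine, serine and cysteine carrier ASCT1, had 6.37, 5.07 and 4.44 FPKM in control and 6.23, 6.86 and 7.41 in SP libraries. The first control library lay within the SP range. This gave a log2 fold change of 0.32 (adjusted p = 0.092 with limma), and without control replicate 1 it was 0.44 (adjusted p = 0.025). SLC1A1, the glutamate carrier EAAT3, was at 0.620 ± 0.113 and 0.913 ± 0.243 FPKM (log2 fold change 0.23, adjusted p = 0.193), and SLC1A2 and SLC1A7 were at 0.06 FPKM or less. Of the 4 SLC1A genes tested 2 were higher and none lower, with a median log2 fold change of 0.35.

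SLC36A4 was higher and SLC36A1 was not called. SLC36A4 encodes the proline and tryptophan carrier PAT4 and lies on chromosome 11 from 93144171 to 93197964. Its FPKM was 6.86, 6.44 and 6.88 in control and 8.62, 9.44 and 8.51 in SP libraries. The groups were well separated against a small spread, with a log2 fold change of 0.35 (SE 0.08, adjusted p = 0.0170 with limma). The call was lost without control replicate 2 (0.072) and without SP replicate 2 (0.090) and was kept in the other 12 alternatives. SLC36A1, a lysosomal carrier that exports small amino acids with protons, had 3.01 ± 0.449 FPKM in control and 3.01 ± 0.414 in SP libraries (log2 fold change 0.00081, 95% interval -0.26 to 0.26, adjusted p = 0.997).

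The 2 SLC43A genes tested had no calls with limma, and 1 of them, SLC43A2, had an unadjusted p under 0.05. SLC43A3, the most abundant at 93.6 ± 11.1 FPKM in control and 86.5 ± 8.74 in SP libraries (log2 fold change -0.11, adjusted p = 0.472 with limma), carries purine nucleobases rather than amino acids, and a further protein-coding gene model overlaps it on the same strand. SLC43A2 encodes the large neutral amino acid facilitator LAT4 on chromosome 17. Its FPKM was 4.19, 3.72 and 3.55 in control and 3.26, 2.62 and 2.69 in SP libraries, without overlap. The log2 fold change was -0.32 (SE 0.10, adjusted p = 0.053 with limma). Its adjusted p with limma was 0.037 with the replicate block, 0.042 without SP replicate 1 and 0.045 without the trend. SLC43A1, a related facilitator, was below the filter at 0.13 to 0.75 FPKM. It was the only one of the 10 members below the filter that reached 0.15 FPKM in any library.

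**Figure D3:**
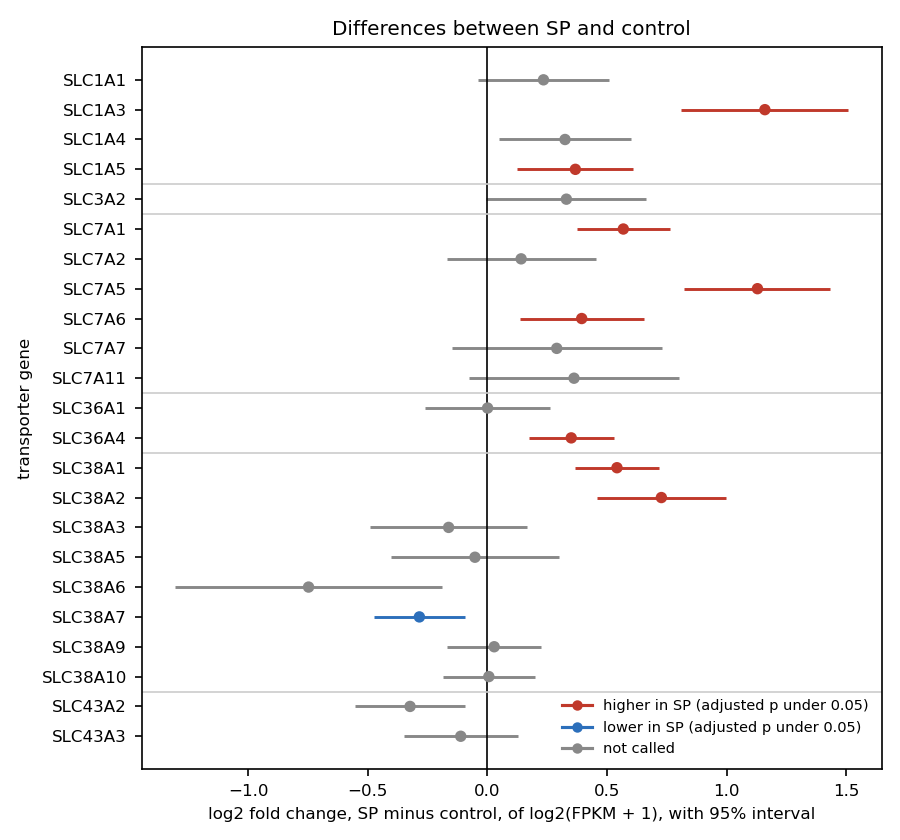
Log2 fold change of SP minus control on the log2(FPKM + 1) scale with its 95% interval for the 23 tested transporter genes by SLC family, with calls at an adjusted p under 0.05 in red (higher) and blue (lower) and other genes in grey. SLC1A3 and SLC7A5 lie above 1, and SLC38A6 has the widest interval.

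Of the 9 called members, SLC7A5, SLC1A3, SLC38A1, SLC7A1 and SLC38A2 were called in all 14 alternatives. By motif, the C/EBP-ATF letters were present near a start of 4 of the 9 called members (SLC1A3, SLC1A5, SLC38A1 and SLC7A1) and of 2 of the 10 tested members that were not called and had a promoter entry (SLC1A4 and SLC3A2). AP-1 was present in 3 and 3 of these genes, the ARE in 5 and 2, and the E-box in 3 and 3. The called genes had 16 start sites and the others 20. SLC3A2, whose promoter window held the AP-1 and ARE letters shown above, was not called. Its C/EBP-ATF match lay at position 38 after the start, outside the stretch shown.

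**Figure D4:**
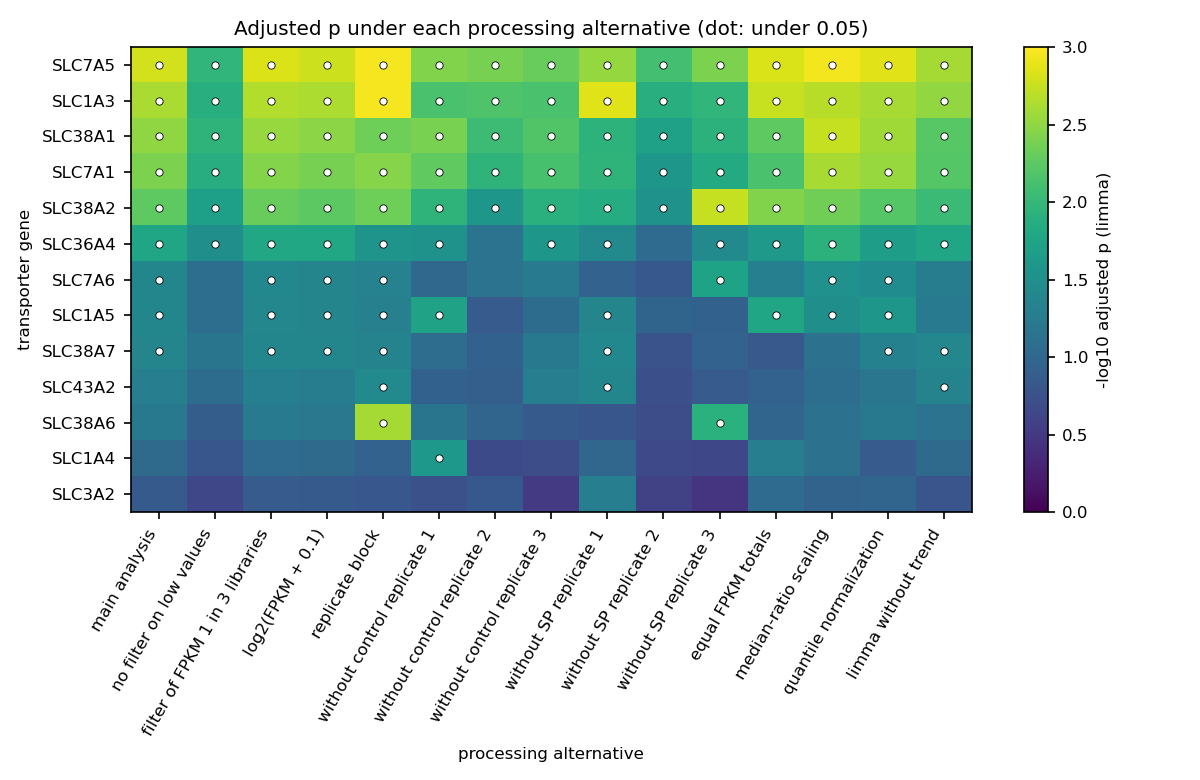
Adjusted p from limma, as a colour on a -log10 scale, for the 9 called members and the 4 uncalled ones with the smallest p (rows) in the main analysis and the 14 alternatives (columns), with a dot where it is under 0.05. The first 5 rows have a dot in every column and SLC3A2 has none.

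Genes that act with these carriers were read from the same fit, as lists written from general knowledge. Over all genes tested, 8.57% were higher and 12% lower, and no list was tested against these shares. Of 24 tested genes of the amino acid response, which ATF4 drives, 7 were higher (29.2%) and 2 lower (8.33%), with a median log2 fold change of 0.18. DDIT4, an inhibitor of mTORC1, had 69.08, 71.63 and 62.45 FPKM in control and 120.0, 139.11 and 169.39 in SP libraries (log2 fold change 1.05, adjusted p = 0.0013 with limma). CHAC1, which degrades glutathione, went from 3.26 ± 0.799 to 7.29 ± 2.02 FPKM (0.95 on the log2 scale, adjusted p = 0.0124), and the pseudokinase gene TRIB3 from 18.9 ± 3.17 to 31.0 ± 4.84 (0.69, adjusted p = 0.0125). The other higher genes were CEBPB, ATF3, CTH and PPP1R15A, and the lower ones were VLDLR (adjusted p = 0.041) and CBS (0.046). The remaining 15 tested genes were not called. ATF4 itself, ASNS, PSAT1, PHGDH, PSPH, SHMT2 and MTHFD2 were not among the called genes. The activity of ATF4 was not tested. With equal FPKM totals 7 genes of the list were higher and none lower, with median-ratio scaling 8 and none, and with quantile normalization 7 and 1. The list had 5, 4 and 4 calls without control replicate 2, SP replicate 2 and SP replicate 3.

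In the mTORC1 amino acid sensing list no gene of 35 tested was higher and 5 (14.3%) were lower, a share near the 12% of all genes, with 3 higher and 11 lower at an unadjusted p under 0.05. The lower genes were LAMTOR4 and LAMTOR1, subunits of the lysosomal Ragulator complex, RRAGC and RRAGB, which encode Rag GTPases, and NPRL3, a subunit of the GATOR1 inhibitor of mTORC1. LAMTOR4 went from 89.9 ± 7.38 to 65.2 ± 3.63 FPKM (log2 fold change -0.46, adjusted p = 0.0065 with limma), RRAGC from 16.5 ± 1.56 to 11.8 ± 1.21 (-0.46, adjusted p = 0.0146) and RRAGB from 9.01 ± 0.959 to 6.72 ± 0.316 (-0.37, adjusted p = 0.0263). The RRAGC call was lost without control replicate 2 (0.052) and SP replicate 2 (0.064). That of RRAGB was lost without control replicates 1 and 2 (0.060 and 0.10) and SP replicates 2 and 3 (0.112 and 0.067), with no filter (0.052) and with equal FPKM totals (0.053). The count of calls was 3 and 1 without control replicates 1 and 2, 1 and 3 without SP replicates 2 and 3, and 8 with the replicate block. With equal FPKM totals 1 gene was higher and 3 lower, with median-ratio scaling 2 and 3, and with quantile normalization 1 was higher and 5 lower.

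Genes on the lists for amino acid, glutathione and polyamine metabolism were called in both directions. In glutamine, glutamate and proline metabolism 3 of 17 (17.6%, against 8.57% of all genes) were higher and none lower (5 and 3 at an unadjusted p under 0.05). These were glutamine synthetase GLUL (16.8 ± 2.09 to 24.7 ± 1.49 FPKM, adjusted p = 0.0075 with limma), GFPT1 of hexosamine synthesis (17.6 ± 2.10 to 23.2 ± 0.988, adjusted p = 0.0225) and ornithine aminotransferase OAT (67.9 ± 0.746 to 77.4 ± 0.891, adjusted p = 0.0428). OAT was not called with any 1 library left out (0.066 to 0.148), with the replicate block (0.059) or without the trend (0.076), GFPT1 was not without SP replicate 2 (0.097) or 3 (0.058), and the list had 1 call without either of these. In cysteine and glutathione metabolism 3 of 16 were higher and 3 lower, or 18.75% each against 8.57% and 12% of all genes. The thioredoxin reductase gene TXNRD1 went from 201 ± 36.5 to 363 ± 21.8 FPKM (log2 fold change 0.86, adjusted p = 0.0036), CHAC1 and CTH were higher as above, and CBS, CSAD and GGCT were lower. GGCT went from 49.8 ± 3.60 to 40.4 ± 0.791 FPKM (adjusted p = 0.0213), and its call was lost without control replicate 2 (0.079) and SP replicates 2 and 3 (0.094 and 0.053) and with median-ratio scaling (0.053). This list had 2, 2 and 3 calls without control replicate 2, SP replicate 2 and SP replicate 3, and it had 4 higher and 1 lower with equal FPKM totals and 4 higher and none lower with median-ratio scaling.

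In arginine and polyamine metabolism 4 of 15 (26.7%, against 8.57% of all genes) were higher and 1 (6.67%, against 12%) was lower. DDAH1, which breaks down methylarginines, went from 11.8 ± 0.490 to 18.7 ± 1.37 FPKM (log2 fold change 0.62, adjusted p = 0.0019 with limma) and ornithine decarboxylase ODC1 from 34.0 ± 1.68 to 46.4 ± 4.90 (0.43, adjusted p = 0.0110), while spermine synthase SMS went from 208 ± 6.46 to 168 ± 3.8 (-0.31, adjusted p = 0.0095). ARG2 and SAT1 were the other higher genes. In branched-chain amino acid breakdown none of 18 was higher and 5 (27.8%, against 12% of all genes) were lower (0 and 6 at an unadjusted p under 0.05). They were the transaminase gene BCAT2 (49.3 ± 2.42 to 37.0 ± 1.49 FPKM, adjusted p = 0.0054), HIBADH (23.4 ± 1.98 to 16.8 ± 0.380, adjusted p = 0.0066), HIBCH (11.6 ± 0.472 to 8.77 ± 0.646, adjusted p = 0.0161), BCKDK and DLD. The call of HIBCH was lost without control replicate 2 (0.061), without SP replicate 3 (0.053) and with equal FPKM totals (0.080). This list had 2, 3 and 2 calls without control replicate 2, SP replicate 2 and SP replicate 3, and 2 with equal FPKM totals.

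Of 13 tested amino acid carriers outside the 6 families, 2 (15.4%, against 8.57% of all genes) were higher and none lower (4 and 1 at an unadjusted p under 0.05). SLC6A20, a sodium-driven proline carrier of kidney and gut, had 0.54, 0.67 and 0.77 FPKM in control and 1.58, 2.97 and 2.46 in SP libraries (log2 fold change 0.99, adjusted p = 0.0049 with limma). MFSD12, a lysosomal cysteine carrier, went from 60.4 ± 6.03 to 83.3 ± 3.55 FPKM (0.46, adjusted p = 0.0077).

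**Figure D5:**
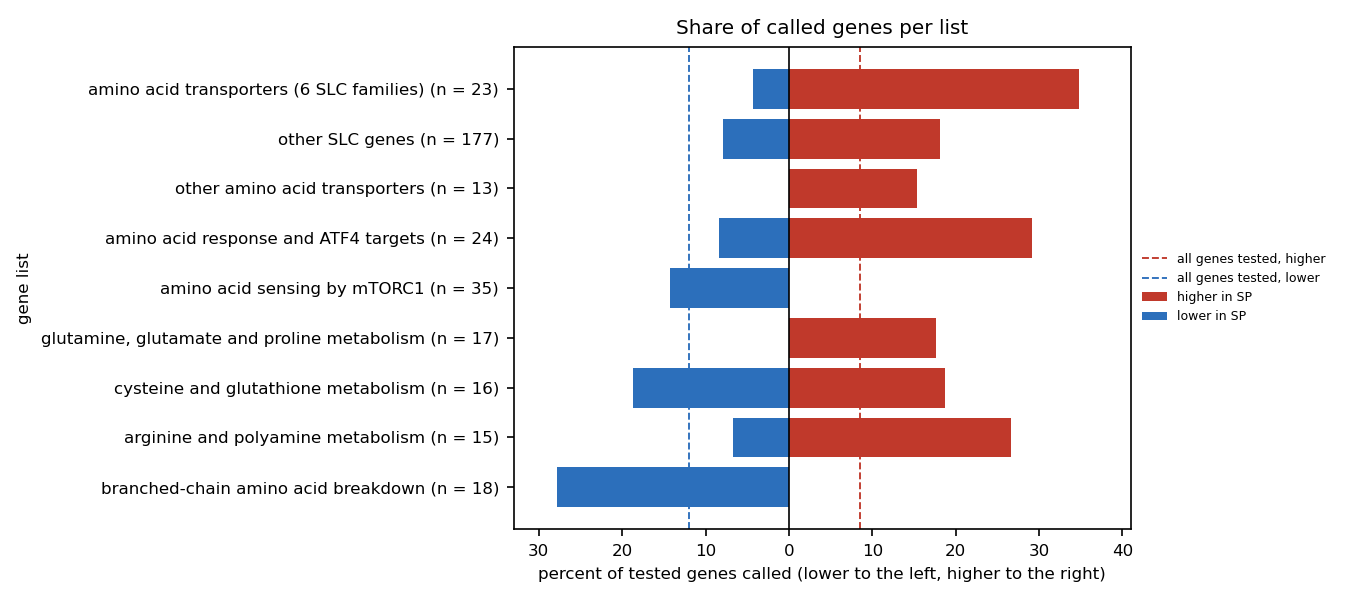
Percent of the tested genes in each list that were higher (red, to the right) or lower (blue, to the left) with SP at an adjusted p under 0.05, with dashed lines at the percentages over all genes tested (8.57 and 12). The bar of the amino acid transporters reaches 34.8% to the right and 4.35% to the left, and branched-chain amino acid breakdown has a bar to the left alone.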

How the data were processed

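RNA was sequenced by the authors as paired-end reads (DNBSEQ), cleaned, mapped to GRCh38.p13 with HISAT and quantified with RSEM. The submitters' processing notes name HISAT2 and Bowtie2. The authors deposited FPKM, rounded to 2 decimals, for 16250 genes in 6 libraries (3 SP, 3 control), with no pooling. Such values are scaled within a library, so abundant genes that change shift the others. Read depth is unknown, and the sources used here do not state strand handling. The authors called genes with DESeq2, which needs counts and was not run here.

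Here log2(FPKM + 1) was fitted with limma 3.58.1 in R 4.3.3 (variance trend, Benjamini-Hochberg adjustment, checked on simulated data) for the 12127 genes that reached 0.5 FPKM in 3 or more libraries. Intervals are limma's 95% intervals. Levels are the mean ± SD of 3 libraries. Groups came from the labels. The main fit and the permutation tests left the libraries unpaired. Same-numbered libraries were taken as pairs in a blocked fit alone. Deviations from the group means correlated by 0.165, 0.223 and 0.170 between same-numbered libraries and by -0.148 to -0.036 between others. Deviations cancel within a group, so these correlations are not independent of each other. The pairing comes from these correlations, since the labels leave the meaning of the numbers open. The blocked fit is an alternative.

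Every called member was named, as were the most abundant of each family, the members not called and, in each other list, the 3 called genes with the smallest p. Other genes of lists were named after their values were seen. The members and lists were chosen with earlier results of these data known. Alternatives were another pseudocount (0.1), no filter or one of FPKM 1, the block, 3 scalings, limma without the trend and each library left out. Some markers and overlapping genes are not reported here. Positions are from GENCODE 29 (GRCh38) and promoters from RefSeq (GRCh38.p14).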

Additional observations from a re-analysis of the deposited data

How the results depend on the processing

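Under the 14 alternatives, all planned, the members called higher numbered 6 to 8 with all libraries kept and 5 to 8 with each library left out (5 without control replicate 2 or SP replicate 2). Members called lower numbered 0 with no filter, with equal FPKM totals and with median-ratio scaling, 2 without the trend and 0 to 2 with a library left out. With the replicate block 3 were lower, as SLC38A6 and SLC43A2 joined SLC38A7, the 8 higher calls stayed, and the mTORC1 sensing list had 8 calls. The block ended the call of OAT (adjusted p = 0.059 with limma). It changed no other call among the members and the list genes given with FPKM. The amino acid response list had 8 calls with the block against 9 in the main fit, and the cysteine list 5 against 6. Over all genes, the higher calls ranged from 474 to 1117 and the lower calls from 426 to 1413 with a library left out, and the lower calls were 751 with equal FPKM totals and 912 with median-ratio scaling. Calls with a library left out numbered 4 to 9 in the amino acid response list, 1 to 7 in mTORC1 sensing, 1 to 4 in glutamine metabolism, 2 to 6 in cysteine metabolism and 2 to 5 in branched-chain breakdown. With no filter these were 4 for the amino acid response, 2 for mTORC1 sensing and 3 for cysteine metabolism, and equal FPKM totals left 2 in branched-chain breakdown. The SLC7A median was 0.54 with the pseudocount of 0.1. Log2 fold changes near 0 took both signs with a library left out, from -0.081 to 0.091 for SLC36A1, -0.049 to 0.069 for SLC38A10, -0.23 to 0.11 for SLC38A5 and -0.028 to 0.071 for SLC38A9, and that of SLC38A5 was 0.0071 with equal FPKM totals. The cause of these shifts was not tested. Read depth is unknown, so what it limits could not be measured. The precision of a difference is limited by the spread between 3 libraries, as for SLC3A2.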
